A study of Mus musculus with 2 samples.

Results

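The genes that carry NF-κB signals from receptors to the IκB proteins were followed in mouse fetal liver progenitors with and without IκBα, the inhibitor encoded by Nfkbia. They were 10 of the 32285 genes listed in the count tables, chosen by name: the adaptors Traf2, Traf3 and Traf6, the ubiquitin ligases Birc2 and Birc3, the kinase NIK (Map3k14), the IκB kinase (IKK) complex (Chuk, Ikbkb and Ikbkg) and the brake A20 (Tnfaip3). Cells came from E14.5 fetal livers of CD1 mice, were depleted of lineage-positive cells and sorted as LSK progenitors (SCA1-positive, cKIT-positive cells without lineage markers), and were profiled by droplet-based 3′ single-cell RNA sequencing. The IκBα WT library pooled 2 embryos and the IκBα KO library pooled 3 embryos with a germline deletion of Nfkbia in all cells, so embryo, library and genotype cannot be told apart. With 1 library per genotype no test across samples was possible, and every interval given here is a 95% exact interval that covers counting error only.

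In the canonical arm, receptors such as those for TNF, interleukin-1 and bacterial products recruit TRAF adaptors, and the IKK complex then phosphorylates IκB proteins, which are degraded and release NF-κB dimers. In the non-canonical arm, TRAF3, TRAF2 and the cIAP ligases keep the kinase NIK at a low level by degrading it, and receptors such as the lymphotoxin β receptor stop this degradation, so that NIK and IKKα drive the processing of p100 to p52. The steps of both arms are run largely by phosphorylation and ubiquitin, which transcript counts do not show. Ikbkb, Ikbkg, Traf6 and Tnfaip3 were counted as canonical, Map3k14 and Traf3 as non-canonical, and Chuk, Traf2, Birc2 and Birc3 as shared by both arms.

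Several of these genes, among them Tnfaip3 and Birc3, are known targets of NF-κB itself, and the promoters were therefore searched for κB motifs. RefSeq (GRCm38.p6) gave at least 1 promoter for 9 of the 10 members. The κB consensus was found on either strand in the 250 bases before the start of 2 of these 9 genes, Traf3 and Tnfaip3, against 4.46% of 27025 genes with a promoter and 3.90% of their 32851 promoters. The sequences of those 2 promoters follow with the matches in capitals. The Traf3 sequence is the whole stretch at chr12:111166120-111166369 on the plus strand, and the Tnfaip3 sequence is the 137 bases nearest to the start, at chr10:19015411-19015547 on the minus strand.
Traf3: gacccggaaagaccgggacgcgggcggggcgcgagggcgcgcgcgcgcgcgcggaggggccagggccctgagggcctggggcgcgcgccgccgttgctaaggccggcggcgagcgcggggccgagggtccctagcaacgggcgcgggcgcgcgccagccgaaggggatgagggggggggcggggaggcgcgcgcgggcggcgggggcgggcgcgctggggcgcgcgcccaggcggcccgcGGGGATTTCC
Tnfaip3: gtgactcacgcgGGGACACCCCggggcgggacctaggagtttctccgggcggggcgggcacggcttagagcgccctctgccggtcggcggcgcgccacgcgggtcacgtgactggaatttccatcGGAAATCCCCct
The Traf3 match, GGGGATTTCC, ended at the base before the annotated start. In Tnfaip3 a match began 125 bases before the start on the same strand, and a match on the opposite strand began 12 bases before it and read GGGGATTTCC there. The looser pattern GGGNNNNNCC, which includes the consensus and was also searched on both strands, was present in 8 of the 9 members and in 48.7% of all genes with a promoter. A match describes letters only, and no factor binding was measured.

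After filtering, 3458 WT and 4417 KO cells remained, with a median of 28065 UMIs (unique molecular identifiers, each marking 1 captured RNA molecule) in WT and 19560 in KO cells, a ratio of 1.43. Nfkbia had 1478 UMIs in the WT and 7 in the KO library. Cells with Y-linked UMIs and no Xist UMI, counted as male, made up 0.116% of the WT and 17.4% of the KO library. Scrublet called 3.47% and 5.23% of the cells doublets, and 7 cell barcodes occurred in both libraries.

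Cell classes were set by marker sums. Stem-like cells (Hlf, Mecom, Procr and Mllt3) numbered 474 in WT and 481 in KO, lymphoid-like cells (Flt3, Dntt and Il7r) 133 and 154, neutrophil-like cells (Mpo, Elane and Prtn3) 98 and 139, monocyte-like cells (Irf8, Ly86 and Csf1r) 63 and 62, and erythroid-like cells (Klf1, Rhd, Ermap and Car1) 1492 and 2029. Another 659 and 684 cells passed no gate and 403 and 616 passed more than 1. Of 6 further markers per class that were not used for gating, 5 were highest in stem-like, 4 in lymphoid-like, 6 in neutrophil-like, 5 in monocyte-like and 6 in erythroid-like cells in each library. The lymphoid check markers together were higher in monocyte-like than in lymphoid-like cells, at 1023 against 937 CPM (UMIs per 1000000 UMIs of the class) in WT. Erythroid-like cells, 43.1% of WT and 45.9% of KO cells, are not cells that an LSK sort is meant to hold, and the stem-like gate cut a continuum, with 642 WT and 764 KO cells within 2-fold below it.

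Levels below are CPM of the summed UMIs of a class. The 3′ counts were not scaled by transcript length, so levels are compared between classes and libraries and never between genes. Where classes are said to lie apart, their intervals did not overlap in either library, and the classes also differed in depth, from a median of 15984 UMIs in stem-like to 35984 in erythroid-like WT cells. How often classes lie apart over all genes was not counted, so such differences are not read as particular to these members.

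**Figure D1:**
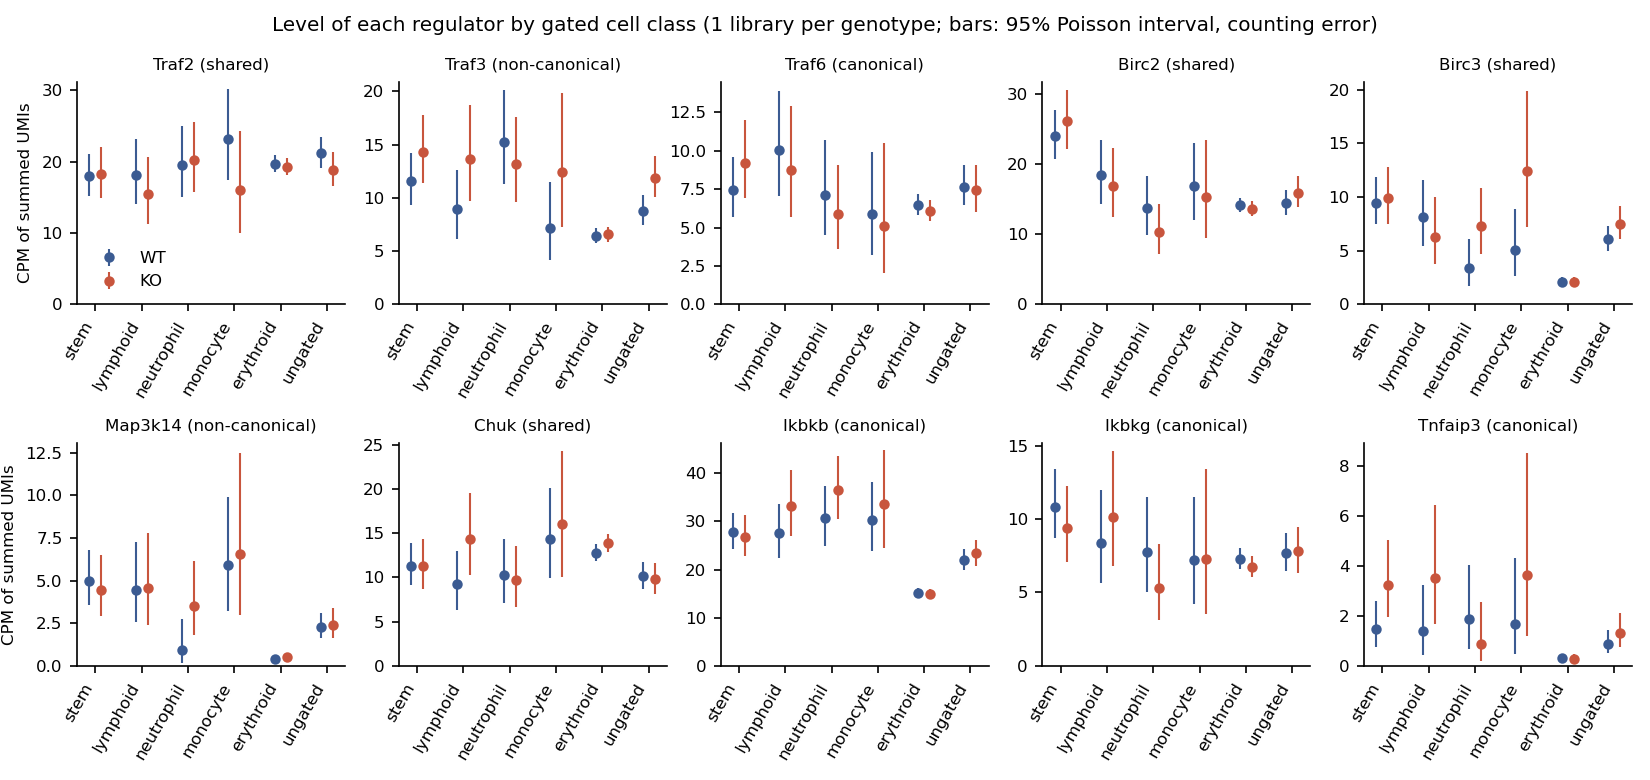
Level of each of the 10 members (y axis, CPM, linear scale that differs between panels) in 6 cell classes (x axis) in the WT and KO libraries; points are CPM of summed UMIs and bars are 95% exact Poisson intervals. Ikbkb, Map3k14, Birc3 and Traf3 were lowest in erythroid-like cells in both libraries, and the WT and KO intervals of every member overlapped in all 6 classes.

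Among the adaptors, Traf3 had class pairs that lay apart, whereas Traf2 and Traf6 had none. TRAF3 is the subunit that docks NIK onto the degrading ligase complex. Traf3 was at 11.6 CPM in WT and 14.3 in KO stem-like cells, at 15.2 and 13.2 in neutrophil-like, at 8.93 and 13.7 in lymphoid-like, at 7.18 and 12.4 in monocyte-like, at 8.78 and 11.9 in ungated and at 6.45 and 6.57 in erythroid-like cells. Erythroid-like cells were lowest in both libraries, and stem-like, neutrophil-like and ungated cells lay apart from them, with stem-like cells 1.80-fold higher in WT and 2.18-fold in KO. The neighbors between these ends overlapped.

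TRAF2 brings the cIAP ligases to TNF receptors and to the NIK-degrading complex. Traf2 ranged over classes from 17.9 to 23.2 CPM in WT and from 15.4 to 20.2 in KO, and none of 15 class pairs lay apart in both libraries. In erythroid-like cells it was at 19.7 and 19.3 CPM, and in stem-like cells at 17.9 and 18.3. TRAF6, the ubiquitin ligase downstream of interleukin-1 and Toll-like receptors, likewise showed no pair apart, with Traf6 between 5.91 and 10.0 CPM in WT and between 5.11 and 9.21 in KO.

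The cIAP genes were both higher in stem-like than in erythroid-like cells, Birc3 by the larger factor. Birc2 and Birc3 encode cIAP1 and cIAP2, ubiquitin ligases that act for the canonical arm at TNF receptors and against the non-canonical arm by degrading NIK, and they are neighbors on chromosome 9, 11.6 kb apart. Birc2 was highest in stem-like cells in both libraries, at 24.0 CPM in WT and 26.1 in KO, against 14.1 and 13.6 in erythroid-like, 13.7 and 10.2 in neutrophil-like and 14.4 and 15.9 in ungated cells. Stem-like cells lay apart from each of these 3 classes. Birc3 was at 9.47 and 9.89 CPM in stem-like cells and at 2.09 and 2.11 in erythroid-like cells, a ratio of 4.53 in WT and 4.70 in KO. Lymphoid-like, monocyte-like and ungated cells also lay above erythroid-like cells for Birc3, while stem-like, lymphoid-like and monocyte-like cells overlapped.

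NIK transcripts were found mostly outside the erythroid-like cells. Map3k14 (chr11:103219762-103267472, minus strand, GRCm38 in GENCODE vM21) was at 4.98 CPM in WT and 4.44 in KO stem-like cells, at 4.47 and 4.56 in lymphoid-like, at 5.91 and 6.57 in monocyte-like and at 2.28 and 2.39 in ungated cells. In erythroid-like cells it was at 0.393 and 0.532 CPM, from 22 and 28 UMIs in 1492 and 2029 cells. The monocyte-like level was thus 15.0-fold and the stem-like level 12.7-fold the erythroid-like level in WT, and 12.4-fold and 8.34-fold in KO. After thinning each cell to 8500 UMIs, 4.12% of WT stem-like cells (2.46 to 6.43) and 0.343% of WT erythroid-like cells (0.112 to 0.799) held a Map3k14 UMI. No class is known to lack the gene, so the erythroid-like share is not a background. In neutrophil-like cells Map3k14 was at 0.932 CPM in WT and 3.51 in KO, from 3 and 12 UMIs. The WT neutrophil-like interval (0.192 to 2.72) overlapped the WT erythroid-like interval (0.246 to 0.595). Of 93 thinned WT neutrophil-like cells, 0% (0 to 3.89) held a Map3k14 UMI. Map3k14 overlaps 1700028N14Rik on the same strand, so its counts are uncertain where reads could belong to either gene.

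Within the IKK complex, Ikbkb followed the classes and its partners did not follow it. Ikbkb (chr8:22659212-22706589, minus strand) encodes IKKβ, the main IκB kinase of the canonical arm. It was at 27.9 CPM in WT and 26.8 in KO stem-like cells, at 27.6 and 33.3 in lymphoid-like, at 30.8 and 36.6 in neutrophil-like and at 30.4 and 33.6 in monocyte-like cells. These 4 classes overlapped one another and all lay above erythroid-like cells, which were at 15.2 and 14.8 CPM. Ungated cells were between them, at 21.9 and 23.4 CPM, apart from the erythroid-like and the neutrophil-like level.

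Chuk, which encodes IKKα, the kinase that phosphorylates p100 and also sits in the canonical complex, was at 11.3 CPM in both WT and KO stem-like cells and at 12.8 and 13.9 in erythroid-like cells. Its only pair apart was erythroid-like over ungated cells, by 1.27-fold in WT and 1.42-fold in KO, the opposite direction to Ikbkb. Ikbkg, the gene of the scaffold NEMO, showed no pair apart, with 7.18 to 10.8 CPM in WT and 5.27 to 10.2 in KO. Ikbkg overlaps G6pdx on the opposite strand of the X chromosome.

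The balance within gene pairs summarised these differences. Ikbkb took 71.1% of the UMIs of Ikbkb and Chuk in WT and 70.4% in KO stem-like cells, 75.0% and 79.1% in neutrophil-like cells and 54.2% (51.7 to 56.7) and 51.6% (49.1 to 54.2) in erythroid-like cells. The erythroid-like share lay below that of every other class in both libraries, without overlap. Birc3 took 28.3% and 27.5% of the cIAP UMIs in stem-like cells and 12.9% and 13.4% in erythroid-like cells, again apart. Traf3 took 39.2% and 44.0% of the Traf2 and Traf3 UMIs in stem-like cells and 24.6% and 25.4% in erythroid-like cells, also apart. The erythroid-like WT and KO intervals overlapped for all 3 pairs. In ungated cells the Traf3 share was 29.3% (25.5 to 33.3) in WT and 38.7% (33.9 to 43.7) in KO, without overlap.

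**Figure D2:**
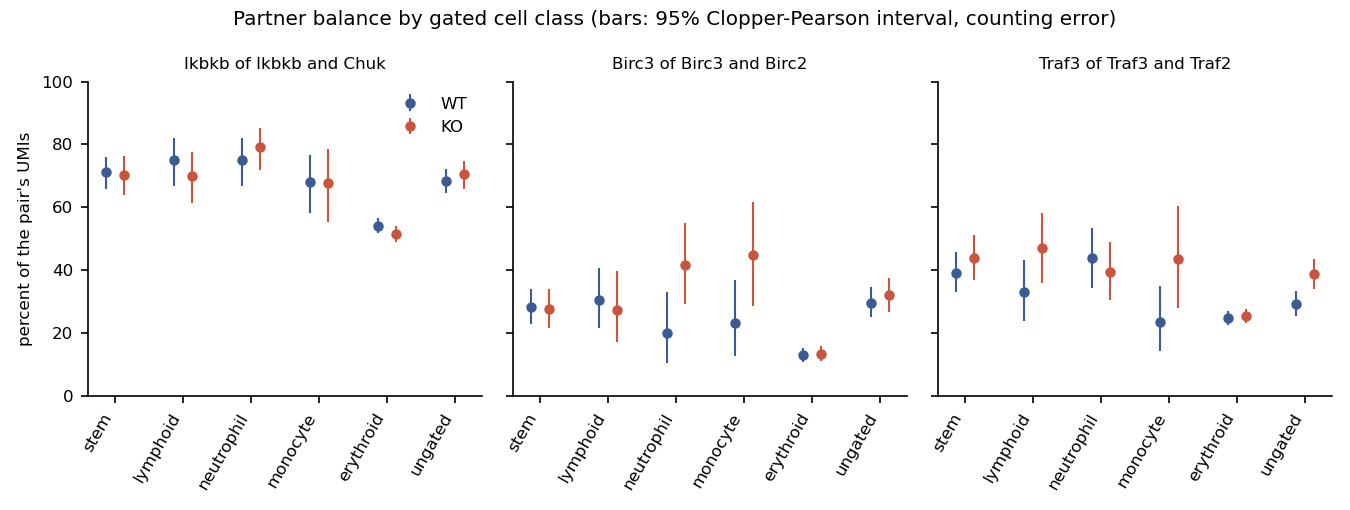
Percent of a pair's UMIs (y axis) taken by Ikbkb against Chuk, Birc3 against Birc2 and Traf3 against Traf2 in 6 cell classes (x axis) in the WT and KO libraries, with 95% Clopper-Pearson intervals as bars. All 3 shares were lower in erythroid-like than in stem-like cells in both libraries, with Ikbkb at 54.2% and 51.6% against 71.1% and 70.4%.

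A20 was the member with the fewest UMIs. It removes ubiquitin chains from signaling complexes upstream of IKK, and NF-κB induces its gene. Tnfaip3 had 12 UMIs in WT and 19 in KO stem-like cells (1.49 and 3.24 CPM), against 17 and 15 UMIs in erythroid-like cells (0.304 and 0.285 CPM). Stem-like and ungated cells lay above erythroid-like cells, whereas the lymphoid-like, neutrophil-like and monocyte-like values rested on 3 to 10 UMIs per library. In thinned cells 0.686% of WT (0.142 to 1.99) and 1.74% of KO stem-like cells (0.641 to 3.75) held a Tnfaip3 UMI, and 0.137% (0.017 to 0.495) and 0.406% (0.175 to 0.799) of erythroid-like cells.

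The stem-like and erythroid-like gates were next replaced by bands of the marker sum, using cells that passed no other gate; these bands were chosen after the class levels had been seen. From the lowest band (below 1 UMI of the stem markers per 10000) to the highest (above 8), Birc2 was at 13.5 and 41.0 CPM in WT and at 15.7 and 46.4 in KO. Birc3 was at 5.80 and 17.6 CPM in WT and at 7.25 and 17.2 in KO. Ikbkb was at 21.8 and 30.3 CPM in WT and at 24.2 and 44.7 in KO. Traf3 was at 9.02 and 10.7 CPM in WT and at 11.7 and 25.8 in KO. The end bands lay apart in both libraries for Birc2, in WT only for Birc3 and in KO only for Ikbkb and Traf3. Chuk was at 9.81 and 9.77 CPM in WT and at 10.2 and 10.3 in KO, so its level was nearly the same at both ends. Median depth was lower in the highest band, at 11010 UMIs against 26654 in WT and 7825 against 19099 in KO, and the part of depth in these levels was not tested.

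Along the erythroid markers Ikbkb, Birc3 and Traf3 were lower in the highest band. For Birc2 the direction of the values, without regard to counting error, depended on whether hemoglobin transcripts were counted in the total. From the lowest band (below 2 UMIs per 10000) to the highest (above 16), Ikbkb was at 22.1 and 4.79 CPM in WT and at 23.7 and 7.20 in KO, and Traf3 was at 8.29 and 1.87 in WT and at 12.4 and 1.96 in KO. Map3k14 and Tnfaip3 had no UMI in the highest band of either library, and Birc3 had 3 UMIs in WT and none in KO. Birc2 was at 14.1 and 13.5 CPM in WT and at 16.8 and 13.5 in KO, with overlapping intervals in each library. Hemoglobin transcripts made up 31.7% of WT and 29.6% of KO UMIs in the highest band. Without them Ikbkb there was at 7.01 and 10.2 CPM, and Traf3 at 2.74 and 2.79. Birc2 without them was at 14.1 CPM in the lowest and 19.8 in the highest band in WT, and at 16.8 and 19.2 in KO. No interval was computed for the levels without hemoglobin.

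**Figure D3:**
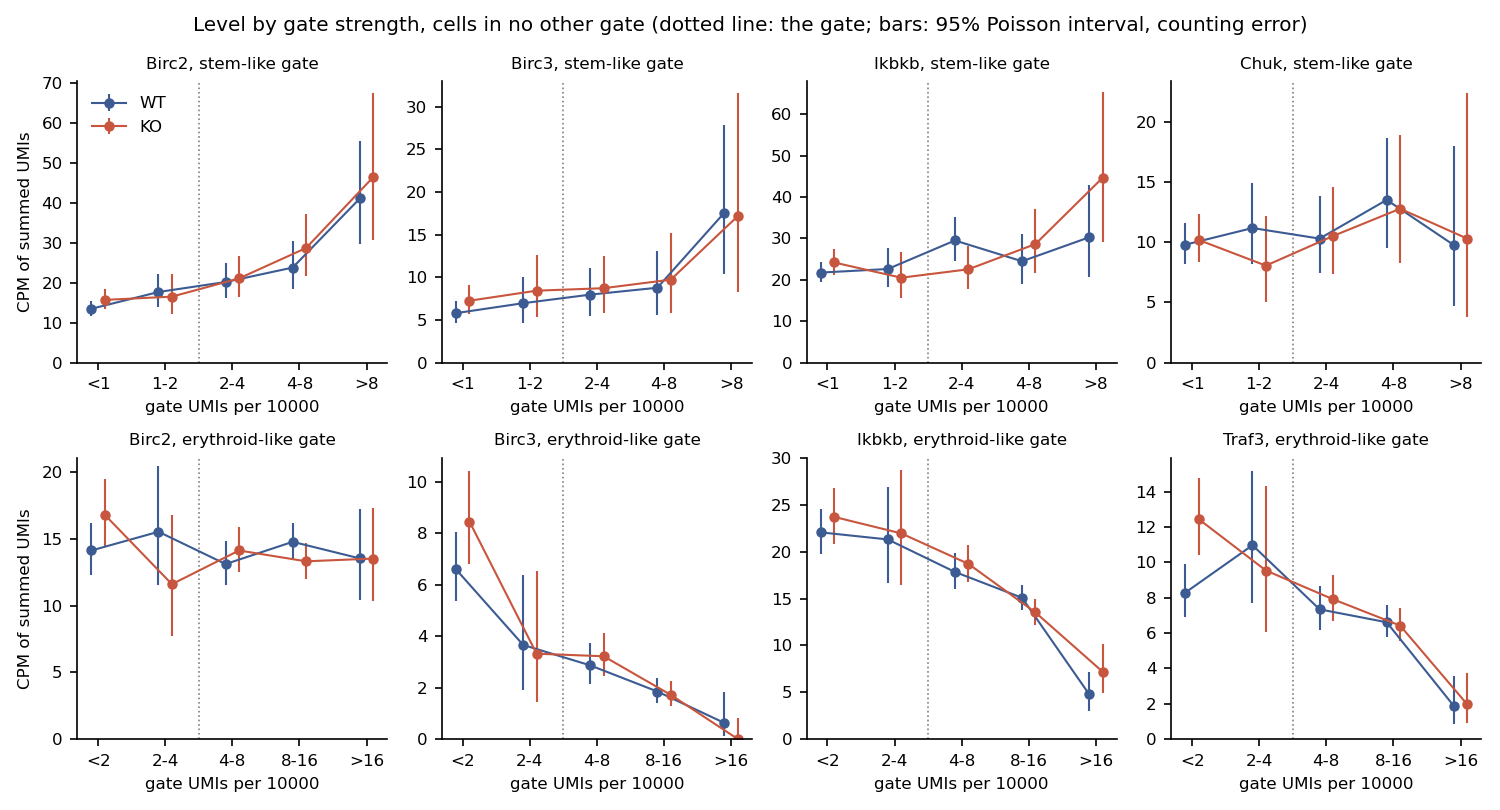
Level (y axis, CPM, scale differs between panels) of Birc2, Birc3, Ikbkb and Chuk in bands of the stem-like marker sum, and of Birc2, Birc3, Ikbkb and Traf3 in bands of the erythroid-like marker sum (x axis, UMIs per 10000), in the WT and KO libraries; bars are 95% exact Poisson intervals and dotted lines the gates. Birc2 reached 41.0 and 46.4 CPM in the highest stem band, and Ikbkb was at 4.79 and 7.20 CPM in the highest erythroid band.

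The comparison of KO with WT asked whether loss of the inhibitor was accompanied by other levels of the genes upstream of it. Over all cells every member was within 1.10-fold of WT. The log2 KO/WT ranged from -0.09 for Ikbkg and Traf6 to 0.13 for Chuk, and the medians of the 10 members and of all 12633 genes tested were 0.0047 and 0.0065. Chuk was at 12.1 CPM in WT and 13.2 in KO, log2 KO/WT 0.13 (0.020 to 0.24), and this was the only one of the 10 intervals without 0. Over all genes with at least 100 UMIs, 35.7% of the intervals were without 0. A gene was counted as past the fold when it differed by more than 1.3-fold and had at least 100 UMIs over both libraries in a class; none of the 10 members did over all cells, where 6.02% of genes were past it upward and 3.08% downward.

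**Figure D4:**
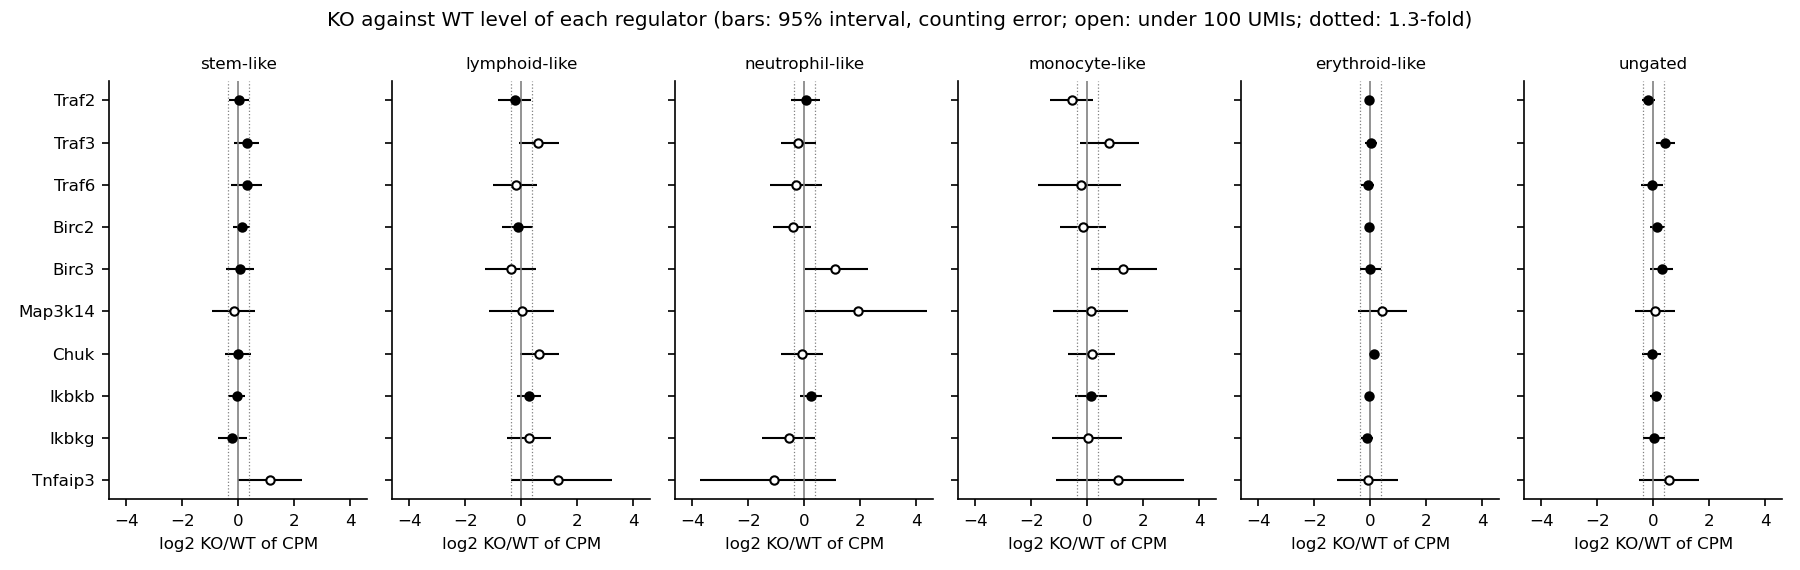
Log2 KO/WT of CPM (x axis) of each member (y axis) in 6 cell classes, with bars for the 95% exact interval of counting error. Dotted lines mark 1.3-fold, and open symbols mark values from under 100 UMIs. Traf3 in ungated cells, at 0.44, is the value past the fold with at least 100 UMIs.

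In stem-like cells 8 of the 10 members had at least 100 UMIs and none was past the fold, against 3.03% of 8383 genes upward and 3.77% downward. The largest of the 8 values was that of Traf3, at 11.6 CPM in WT and 14.3 in KO, log2 KO/WT 0.31 (-0.14 to 0.75). Ikbkb was at -0.06 (-0.36 to 0.24) and Birc2 at 0.12 (-0.20 to 0.43). Of the 8 intervals only that of Ikbkb lay wholly within 1.3-fold, and the other 7 did not leave out a difference of that size. Tnfaip3, below the minimum, was 2.17-fold higher in KO with an interval of -0.0011 to 2.29 on the log2 scale.

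Among the classes, erythroid-like cells gave the narrowest intervals for members with at least 100 UMIs. All 8 members with at least 100 UMIs lay between -0.11 and 0.12, none past the fold, where 3.01% of 10185 genes were past it upward and 2.1% downward. Traf2, the member with the most UMIs there, was at 19.7 CPM in WT and 19.3 in KO, log2 KO/WT -0.03 (-0.15 to 0.09). Ikbkb was also at -0.03 (-0.17 to 0.11).

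The smaller classes held fewer usable members. In lymphoid-like cells 3 members had at least 100 UMIs and none was past the fold, against 5.38% of 5869 genes upward and 4.11% downward, and Ikbkb was at 27.6 CPM in WT and 33.3 in KO, at a log2 KO/WT of 0.27 (-0.15 to 0.69). In neutrophil-like cells this held for 2 members, Ikbkb and Traf2, none past the fold, against 5.88% upward and 3.56% downward of 5784 genes. In monocyte-like cells Ikbkb alone reached the minimum and was not past the fold, against 5.18% upward and 7.4% downward of 4325 genes. Over the 6 classes, 30 of the 60 values of a member in a class had at least 100 UMIs, and 4 of the 60 had an interval without 0. Among the values of all genes with at least as many UMIs as the lowest member of the class, 14% had such an interval. With at least 100 UMIs it was 1 of the 30 member values, against 17.2% over all genes.

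Of those 4, 3 were below the minimum and all lay above 0. Birc3 had 11 UMIs in WT and 25 in KO neutrophil-like cells (3.42 and 7.32 CPM, log2 1.10, 0.02 to 2.27). In monocyte-like cells it had 12 and 17 UMIs (5.07 and 12.4 CPM, log2 1.29, 0.14 to 2.49). Map3k14 had 3 and 12 UMIs in neutrophil-like cells (0.932 and 3.51 CPM, log2 1.91, 0.02 to 4.38). In the larger classes Birc3 was at 0.06 in stem-like, 0.01 in erythroid-like and 0.31 (-0.10 to 0.71) in ungated cells, and Map3k14 was at -0.17 in stem-like and 0.43 (-0.42 to 1.31) in erythroid-like cells, all with 0 inside the interval. Whether the classes differ in their KO/WT ratio was not tested, since no sample is repeated.

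The fourth was Traf3 in ungated cells, at 8.78 CPM (7.46 to 10.3) from 158 UMIs in WT and 11.9 CPM (10.1 to 13.9) from 154 UMIs in KO, log2 KO/WT 0.44 (0.11 to 0.77). It was the only one of 8 ungated members with at least 100 UMIs that was past the fold, against 2.65% upward and 2.54% downward of 9411 genes. The value was 0.42 (0.06 to 0.78) with female cells only, 0.22 (-0.30 to 0.75) in thinned cells and 0.17 (-0.03 to 0.36) when the gates were doubled and more cells counted as ungated; these alternatives were chosen after the value had been seen. In the ungated cells below 2 erythroid marker UMIs per 10000 it was 0.59 (0.22 to 0.95), from 122 UMIs in WT and 131 in KO. In the band from 2 UMIs per 10000 up to the erythroid-like gate it was -0.20 (-1.02 to 0.59), from 36 and 23 UMIs. Both bands are parts of the same ungated cells, chosen after the class levels had been seen, so neither is a separate check of the value. In erythroid-like cells it was 0.03.

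In the band with the strongest erythroid markers, Chuk had 31 UMIs in WT and 63 in KO, at 6.46 and 13.7 CPM, log2 KO/WT 1.09 (0.45 to 1.76). This was 1 of 5 intervals without 0 among 98 values of a member in a band with at least 1 UMI, and among all genes with at least as many UMIs as the lowest member of the band 12.4% of the intervals were without 0. With at least 100 UMIs it was 2 of 44 member values, against 17.3% over all genes. The other 4 were Traf3 in the highest stem band (1.26), Traf3 and Traf2 in the lowest erythroid band (0.59 and -0.28) and Traf6 in the band from 2 to 4 erythroid UMIs per 10000 (1.38).

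Summed by arm, UMIs of the canonical members came to 35.6 CPM in WT and 35.0 in KO over all cells, log2 KO/WT -0.02 (-0.09 to 0.04), with 56.2% of the UMIs from Ikbkb. The non-canonical members came to 9.68 and 10.3 CPM, log2 0.09 (-0.04 to 0.21), with 83.9% from Traf3, and the shared members to 51.0 and 52.3 CPM, log2 0.03 (-0.02 to 0.09). The arms overlapped in their KO/WT intervals. In stem-like cells the values were 0.03 (-0.20 to 0.25) for the canonical, 0.18 (-0.20 to 0.56) for the non-canonical and 0.06 (-0.13 to 0.26) for the shared sum. The non-canonical sum of ungated cells, at 11.1 and 14.3 CPM and log2 0.37 (0.07 to 0.67), was the only one of 18 class sums with an interval without 0 at these gates, and 81.2% of its UMIs were Traf3. With the gates halved the non-canonical sum was at 0.44 (0.09 to 0.80) in stem-like and 0.66 (0.05 to 1.28) in lymphoid-like cells, and with the gates doubled it was at -0.18 (-0.68 to 0.31) in stem-like cells. All 10 members together came to 96.3 CPM in WT and 97.5 in KO, log2 0.02 (-0.02 to 0.06).

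**Figure D5:**
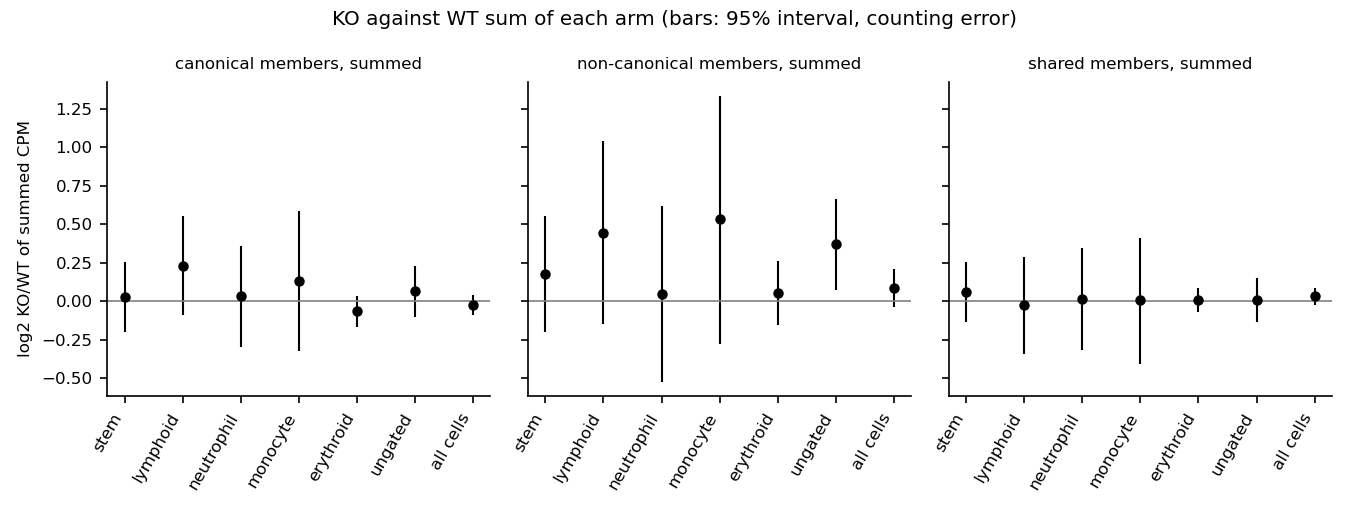
Log2 KO/WT (y axis) of the summed CPM of the canonical, non-canonical and shared members in 6 cell classes and in all cells (x axis), with bars for the 95% exact interval of counting error. The non-canonical sum of ungated cells, at 0.37, is the only one of the class sums at these gates whose bar does not reach 0.

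The other genes of the pathway formed a list of 64 (further adaptors, linear ubiquitin ligase and deubiquitinase genes, IKK-related kinases, receptors, IκB and Rel genes and NF-κB targets). With at least 100 UMIs and past the fold, 3 of 40 tested genes were higher and none lower in stem-like cells, against 3.03% and 3.77% of all genes, Nfkbia left out. In lymphoid-like cells 1 was higher and 2 were lower of 29 (all genes 5.38% and 4.11%), in neutrophil-like cells 2 and 1 of 29 (5.88% and 3.56%) and in monocyte-like cells 3 and 1 of 16 (5.18% and 7.4%). In erythroid-like cells 1 was higher and none lower of 43 (3.01% and 2.1%), and in ungated cells 2 and none of 43 (2.65% and 2.54%). Over all cells 5 of 61 were higher and none lower, against 6.02% and 3.08%. Of these genes Ltb, the lymphotoxin β subunit and a ligand of the non-canonical arm, was past the fold with intervals without 0 in 3 of the 4 larger classes, at 175 CPM in WT and 319 in KO stem-like cells, 72.3 and 109 in lymphoid-like and 3.61 and 4.84 in erythroid-like cells. The 3 in stem-like cells, named after their values were seen, were Ltb, Relb (4.61 and 11.3 CPM) and Nfkb2 (8.10 and 11.6 CPM), the last 2 being the NF-κB subunits of the non-canonical arm. The 4 in monocyte-like cells, also named after their values were seen, were Nfkb1 (51.1 and 81.0 CPM), Rel (33.8 and 47.4 CPM, with 0 inside its interval) and Zfp36 (57.9 and 86.8 CPM), and Sod2 (111 and 85.3 CPM), the one that was lower. Map3k14 and Traf3, the members counted as non-canonical, were at -0.17 and 0.31 in stem-like cells, with 0 inside both intervals.

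Counted per cell at 8500 UMIs, a cell held UMIs of 0.756 of the 10 members on average in WT and 0.752 in KO. No member was seen in 45.3% of WT cells (43.6 to 47.0) and 46.8% of KO cells (45.2 to 48.3). Stem-like cells had none in 35.9% and 38.3%, and erythroid-like cells had none in 50.9% and 52.4%, so the order of these classes was the same in both libraries. Thinning left out 37 of 474 WT and 136 of 481 KO stem-like cells that held fewer UMIs, so the shares given for stem-like cells cover the deeper cells, the more so in KO.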

How the data were processed

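Single LSK-sorted fetal liver cells were measured in 1 WT and 1 KO library. Per the labels, the authors ran Cell Ranger 6.0.0 with build mm10, and the deposited values are unnormalized UMI counts by gene and cell barcode. The annotation release was not given in the sources used here. The sample titles name LT-HSCs and the cell type entries LSK cells. Barcodes under 1000 genes or over 20% mitochondrial UMIs were removed, and Scrublet calls (scanpy 1.11.5, expected rate 5%) stayed in.

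A cell belonged to a class when its summed gate markers reached 2 (stem-like), 1 (lymphoid-like), 30 (neutrophil-like), 2 (monocyte-like) or 4 (erythroid-like) UMIs per 10000, with at least 2 UMIs, and it passed no other of 11 gates. The thresholds were set on the gate sums after the files were opened. Hepatocyte-like and mesenchymal-like gates served to remove cells. UMIs were summed per class and divided by the class total (CPM). Intervals are exact Poisson (levels), conditional Clopper-Pearson (ratios) and Clopper-Pearson (shares), and their calculation was checked on simulated data (numpy 2.4.6, scipy 1.17.1). Zero counts were left as they were, and the CPM of 3 UMIs was computed as a floor for reference only. Shares of cells used cells thinned to 8500 UMIs, which left 3329 WT and 4038 KO cells.

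Members and gene lists were chosen with earlier results of these data known. All members were named; other pathway genes were named when past 1.3-fold in 1 direction, with an interval without 0, in at least 3 of 4 classes (stem-like, lymphoid-like, neutrophil-like and erythroid-like); and for each member the 3 genes with the most similar pattern over classes were named. Positions came from GENCODE vM21 and promoters from RefSeq, both on GRCm38; promoter bases inside annotated exons were not printed. Alternatives covered cell filters, gates, doublets, depth, scaling, sex and the UMI minimum.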

Additional observations from a re-analysis of the deposited data

How the results depend on the processing

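No paired analysis was possible because WT and KO were 1 library each, and no replicate could be left out. Arm sums of stem-like, lymphoid-like, neutrophil-like and erythroid-like cells and of all cells were recomputed. The settings were other cell filters, gates, doublet handling, depth, scaling or female cells only. Monocyte-like and ungated sums, among them the ungated non-canonical sum, were not recomputed. Of the 171 recomputed sums, 168 stayed within the interval of the reported value, 141 kept its sign and 2 had an interval without 0. Those 2 were the non-canonical sums of stem-like (0.44) and lymphoid-like cells (0.66) with gates halved. The sums outside the reported interval were 3. With gates doubled it was the canonical sum of lymphoid-like cells (-0.10, reported 0.23). In thinned cells they were the canonical sum of erythroid-like cells (0.10, reported -0.07) and the shared sum of lymphoid-like cells (0.49, reported -0.03). The cause was not tested. Of 476 log2 KO/WT values of single members, 463 stayed within their interval, 408 kept their sign and 15 had an interval without 0; 202 of 220 stem-like over erythroid-like contrasts stayed within theirs. With a minimum of 50 UMIs in place of 100, 2 members were past 1.3-fold in lymphoid-like cells (Traf3 and Chuk, higher in KO; 7.73% of all genes), 1 in neutrophil-like cells (Birc2, lower; 5.59%), 1 in monocyte-like cells (Traf2, lower; 11%) and 1 in erythroid-like cells (Map3k14, higher; 4.67%), against 0 reported. All 20 shares of cells with a member UMI moved without thinning. The counts of all genes past the fold moved by over 1.5 times in 25 of 28 cases with a minimum of 50 or 200 UMIs, over a range of 77 to 1020 genes against 206 to 761 reported. Depth limits Tnfaip3 and Map3k14 in every class and all members in lymphoid-like, neutrophil-like and monocyte-like cells, where intervals span at least 0.39 log2 units to either side.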

Other observations

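In cells counted in every gate they passed, an alternative added after the data were seen, the members were also read in further populations. Mast/basophil-like cells (79 in WT and 96 in KO) had Ikbkb at 35.7 CPM in WT and 27.7 in KO and Tnfaip3 at 7.29 and 3.47 CPM. Megakaryocyte-like cells (55 and 219) had Chuk at 16.8 and 18.9 CPM and Map3k14 at 2.21 and 0.434 CPM, the latter from 5 and 2 UMIs. Macrophage-like cells numbered 50 and 109, of which 47 and 106 also passed another gate. Endothelial-like cells numbered 72 and 100, of which 30 and 40 also did. Among the mast/basophil-like cells 39 in WT and 38 in KO also passed another gate, and among the megakaryocyte-like cells 28 and 136. All 40 KO/WT intervals of the members in these 4 populations included 0. They rested on 1 to 126 UMIs per member and library. The share over all genes was not counted, so this is not a result about the members.

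Within the KO library, 770 male and 3066 female cells could be compared, which share library and genotype. They come from different embryos of the pool of 3, so sex and embryo cannot be told apart. Of the 10 members, 9 had intervals that included 0 over all cells, among them the X-linked Ikbkg at 6.93 CPM in male and 7.33 in female cells. The share over all genes was not counted for this comparison, so the count is not a result about the members. Map3k14 was at 0.982 CPM in male and 1.67 in female cells, log2 -0.77 (-1.60 to -0.02). In stem-like cells Traf3 was at 23.9 CPM in male and 12.3 in female cells, log2 0.96 (0.12 to 1.74). Traf2 was at 8.81 and 20.3 CPM there, log2 -1.20 (-2.56 to -0.10). Both were named after the values had been seen and rested on 19 and 7 UMIs in the male cells.

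Across 6 classes and 8204 genes, the patterns most like each member were those of Sh3kbp1, Copa and Cd53 for Ikbkb (mean Pearson r of WT and KO 0.983 for the first), Erap1, Exoc2 and Zbtb34 for Map3k14 (0.993), Leng8, Tanc2 and Tbl1x for Birc2 (0.978) and Nfkbil1, Rnf114 and Rasa1 for Birc3 (0.967). For Traf3 they were Wbp1, Aga and Galnt2 (0.953), for Tnfaip3 Cep83, Atraid and Rbm7 (0.961), for Ikbkg Nfrkb, Cog4 and Zkscan3 (0.951) and for Traf6 Rbm15b, Asb3 and Nudt6 (0.94). For Chuk they were Atad2b, Fam50a and Foxn2 (0.931), and for Traf2 Grpel2, Tle1 and Srrd (0.892). The 6 points share libraries and depth, and the named genes were picked as the 3 highest of 8204 by this measure.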
